A study of Mus musculus with 36 samples.

Results

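Cytochrome P450 genes of families 1, 2 and 3 were followed in the livers of 36 mice. The members were chosen by symbol, as the genes of the deposited count table named Cyp, then a family number of 1, 2 or 3, a subfamily letter and a gene number. Of the 38283 genes there, 57 carried such a symbol, and Cyp2b9, Cyp2b10, Cyp2b13, Cyp2c40 and Cyp2c69 were left out by name, which gave 52 members. Earlier results of these data were known when this was done, so leaving these genes out was not blind to them. Some counts with these genes added are given further below. A filter on low counts passed 38 of the 52. Of the 14 members not tested, Cyp2w1, Cyp2j11 and Cyp2j12 had 0 counts over the 36 libraries. The other 11 were Cyp2b19, Cyp2b23, Cyp2c65, Cyp2c66, Cyp2g1, Cyp2j8, Cyp2j13, Cyp2s1, Cyp2t4, Cyp3a44 and Cyp3a57, with 1 to 199 counts each over all libraries.

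Enzymes of these families sit in the endoplasmic reticulum, hold a heme group, and take electrons from P450 oxidoreductase to put oxygen into drugs, pollutants, steroids, bile acids and fatty acids. Most are made in hepatocytes, many of them mainly in those around the central vein. Their genes are known to respond to the receptors Ahr, CAR and PXR, to hepatocyte factors such as HNF4 and C/EBP, to growth hormone and to feeding, and many lie in clusters of close paralogs.

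Liver RNA was sequenced from male C57Bl/6J mice aged 16 weeks, with 6 mice in each of 6 groups. Wild-type mice were compared with heterozygous mice that carried the Y657* stop codon in *Pik3r1* (WT/Y657*), a knocked-in copy of a human SHORT syndrome allele, present in every tissue and made together with a neomycin cassette between loxP sites. Each genotype was taken fed on chow, fasted for 16 h, or refed on chow for 6 h after a 16 h fast. *Pik3r1* codes for regulatory subunits of the phosphoinositide 3-kinase through which insulin acts, and the design asks how its truncation alters the liver in each state and its responses to fasting and refeeding.

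Total counts per library ranged from 8839481 to 19542778 with a median of 13596664.4, and 13945 genes were tested. Levels are counts-per-million after TMM scaling (CPM) and are given as the lowest, median and highest of the 6 mice of a group. A gene is called where its p-value from edgeR, adjusted over all 13945 genes, is under 0.05, and differences are log2 fold changes with their standard error (SE). All 7 hepatocyte markers had counts in every group, with sums from 49400 to 93400 CPM and Alb as the most abundant. The Y-linked gene Ddx3y was at 81.5 CPM or more and Xist at 0.517 CPM or less in every mouse. *Pik3r1* itself differed between genotypes by log2 values of 0.04, 0.05 and 0.23 in fed, fasted and refed mice (adjusted p = 0.886, 0.807 and 0.423).

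Single mice are named by genotype and number as in the labels, WT_ for wild type and MT_ for WT/Y657*. The layout of the libraries bears on every comparison. The row of the sequencing index followed feeding state, with D503 on 11 of 12 fasted libraries, D504 on 10 of 12 fed libraries and D505 on 9 of 12 refed libraries. Few libraries crossed these rows, 1 fasted one on D504 (MT_923) and 2 fed ones on D505 (WT_856 and MT_858), and no fit with index row as a term was made. The 3 refed libraries on D506 were MT_897, MT_898 and MT_899, the WT/Y657* mice of the higher number series, whose wild-type counterparts were all on D505, so that genotype and index row cannot be told apart in that series. Mouse numbers fell into blocks, which fed mice shared with neither fasted nor refed mice, so that block cannot be told apart from either difference to fed mice, and no value of these with the block as covariate is given. Among fed mice the first block held 4 wild-type mice, the second 2 wild-type and 3 WT/Y657* mice, and the third 3 WT/Y657* mice alone (MT_866, MT_868 and MT_869). Fasted and refed mice each had a lower and a higher series with 3 mice of each genotype. Their numbers interleaved in the lower series, but in the higher series they shared no number range. The fits with the block as covariate still took the higher series of both states as the same block. In that series such fits do not separate refeeding from number range. In bulk liver, fewer cells of a type and less RNA per cell cannot be told apart.

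Cyp2e1, which oxidizes ethanol, acetone and small solvents, was the most abundant member per length, at 2520 reads-per-kilobase-per-million (RPKM) over all libraries. Cyp3a11, the best-known Cyp3a enzyme of mouse liver, followed at 676 RPKM and Cyp2d26 at 417 RPKM. Cyp2f2, Cyp2j5, Cyp2d9, Cyp2d10, Cyp3a25, Cyp2c29 and Cyp2c70 completed the 10 most abundant, at 331 down to 166 RPKM. Cyp1a2, which metabolizes caffeine and aromatic amines, stood at 112 RPKM, whereas the other members of family 1, Cyp1a1 and Cyp1b1, stood at 0.391 and 0.177 RPKM.

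**Figure D1:**
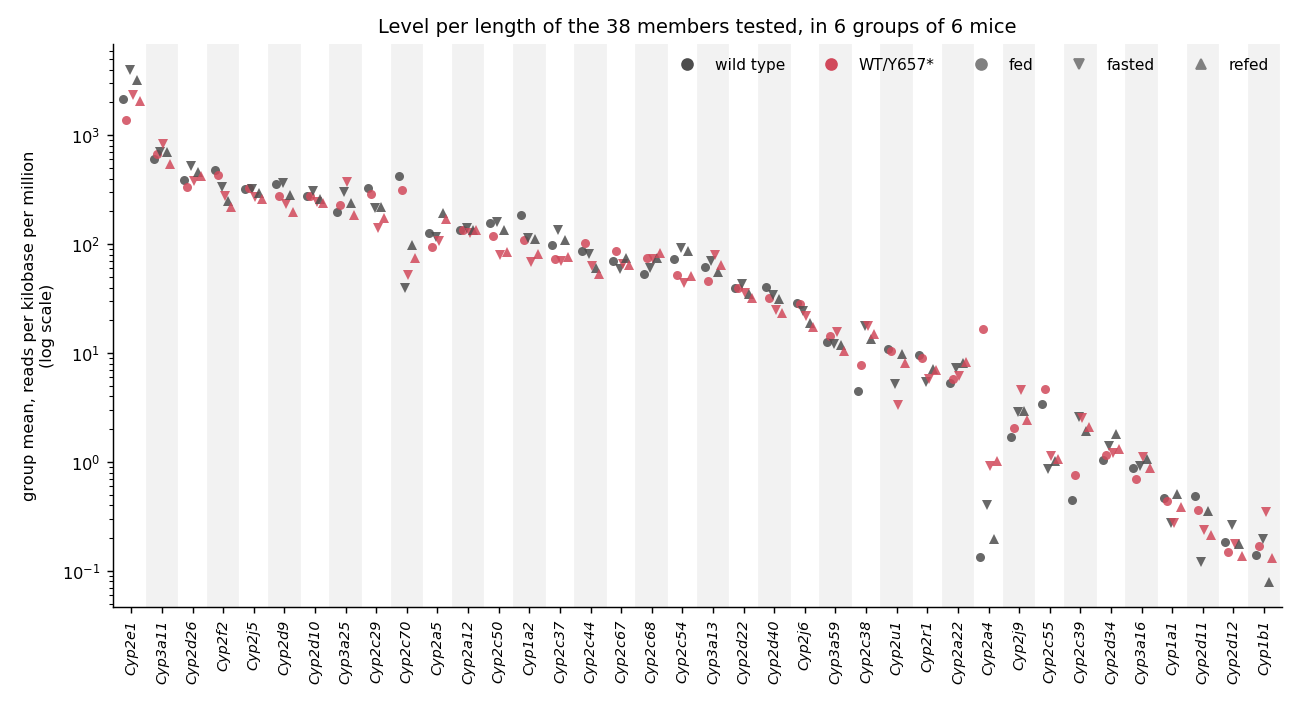
Mean level of each tested member per length (vertical axis, RPKM, log scale) in the 6 groups of 6 mice, ordered by the mean over all libraries, with colour for genotype and symbol shape for feeding state. Cyp2e1 leads at 2520 and Cyp1b1 ends the order at 0.177, and the symbols of Cyp2c70, Cyp2c39, Cyp2c55 and Cyp2a4 lie far apart between groups.

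The members together took 1.60% ± 0.155 (SD, n = 6) of all counts in wild-type fed liver, 1.96% ± 0.135 in wild-type fasted liver and 1.55% ± 0.238 in WT/Y657* fasted liver. Their summed level was 16700 ± 1240 CPM in wild-type fed mice and 20400 ± 1490 CPM in wild-type fasted mice. In WT/Y657* mice it was 14400 ± 1280 CPM fed and 15700 ± 2710 CPM fasted. Refed mice had 17800 ± 2750 CPM in wild type and 13500 ± 3010 CPM in WT/Y657*. Cyp2e1 alone gave 27.7% of the members' CPM in wild-type fed mice and 42.5% in wild-type fasted mice, and between 12.4% and 43.6% in single WT/Y657* fasted mice. These sums were not tested.

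The larger subfamilies each lie on 1 chromosome: the 13 Cyp2c members on chromosome 19 over 5.02 megabases, the 8 Cyp2d members on chromosome 15 over 0.424, the 7 Cyp3a members on chromosome 5 over 8.22 and the 7 Cyp2j members on chromosome 4 over 0.637. Cyp2c44, which starts at position 44005022, lies apart from the other Cyp2c members, which end by 40187333. Cyp3a13, which ends at 137921619, lies apart from the other Cyp3a members, which start from 145345279 on. Exon sequence was compared in windows of 50 bases, since a read shared by paralogs may have been counted for either. Cyp2c67 shared 52.8% of its windows with other genes, Cyp2c68 43.3%, Cyp2a4 38.8%, Cyp2d11 37.2% and Cyp2a5 37.0%. Cyp2c70, Cyp2r1, Cyp3a13 and Cyp2j9 shared 0.0%, Cyp2e1 3.9%, Cyp2c29 4.2% and Cyp1a2 4.8%. What part shared reads have in any value was not tested.

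Fasting asked how the families change when feeding stops. In wild-type liver 14 of the 38 members were called between fasted and fed mice, 6 higher and 8 lower (36.8%), where 32% of all genes were called, 14.5% higher and 17.5% lower. In WT/Y657* liver 18 were called, 6 higher and 12 lower (47.4%), where 32.9% of all genes were, 15.2% higher and 17.7% lower. The members' median log2 difference was 0.07 in wild type and -0.16 in WT/Y657*, and that of all genes 0.010 and -0.008. Of these calls 12 were made in the same direction in both genotypes, 5 higher and 7 lower, or 85.7% of the wild-type list and 66.7% of the WT/Y657* list. Whether the shares of members and of all genes differ was not tested. Single Cyp2c genes moved far and in opposite directions.

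Cyp2c70, which makes muricholic acids in mouse liver, fell more than any other member in wild-type fasted liver. It lies on chr19:40153353-40187333 of GRCm38, minus strand (ENSMUSG00000060613). Fed wild-type mice had 676, 761 and 1090 CPM and fasted ones 38.5, 72.8 and 145 CPM. The WT/Y657* levels were 490, 621 and 821 CPM fed and 80.9, 87.1 and 172 CPM fasted. Every fasted mouse was below every fed mouse of its genotype. MT_923, the fasted library on a fed index row, had 91.3 CPM, and the fed libraries on D505, WT_856 and MT_858, had 679 and 821 CPM. The log2 difference was -3.40 (SE 0.26, adjusted p = 7.7e-12, n = 6 per group) in wild type and -2.60 (SE 0.25, adjusted p = 1.1e-09) in WT/Y657*. The 2 responses differed by 0.80 (SE 0.34), which was not called (adjusted p = 0.181).

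Cyp2c38 and Cyp2c39, neighbours of Cyp2c29 that act on arachidonic acid and, for Cyp2c39, on retinoic acid, rose with fasting. Cyp2c38 (ENSMUSG00000032808) had 6.31, 10.8 and 22.5 CPM in fed and 31.3, 48.1 and 75.8 CPM in fasted wild-type mice, and 11.3, 19.9 and 40.3 against 31, 55.7 and 60.9 CPM in WT/Y657* mice. Cyp2c39 (ENSMUSG00000025003) had 0.227, 0.784 and 1.55 CPM in fed and 3.0, 4.14 and 8.03 CPM in fasted wild-type mice, and 0.807, 1.40 and 2.11 against 2.99, 4.37 and 7.21 CPM in WT/Y657* mice. The fasted mice lay above all fed mice of their genotype for both genes, apart from 1 WT/Y657* mouse for Cyp2c38. Cyp2c38 rose by 1.98 (SE 0.30, adjusted p = 3.8e-06) in wild type and 1.19 (SE 0.28, adjusted p = 0.00146) in WT/Y657*. Cyp2c39 rose by 2.46 (SE 0.36, adjusted p = 9.7e-07) and 1.71 (SE 0.33, adjusted p = 8.2e-05). Cyp2c39 shared 213 of its 1768 windows with other genes, mostly with Cyp2c38, the more abundant of the pair. Neither difference between genotypes in the response was called (-0.79 and -0.75, adjusted p = 0.28 and 0.414).

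Cyp2c29, an epoxygenase of the same cluster (ENSMUSG00000003053), went the other way. Wild-type mice had 863, 1010 and 1160 CPM fed and 555, 660 and 803 CPM fasted, and WT/Y657* mice from 730 to 953 CPM fed and 320, 408 and 651 CPM fasted. All fasted mice were below all fed mice of their genotype. The log2 difference was -0.62 (SE 0.17, adjusted p = 0.00536) in wild type and -1.05 (SE 0.17, adjusted p = 1.2e-05) in WT/Y657*. Cyp2c55, an arachidonic acid hydroxylase (ENSMUSG00000025002), had 2.90, 6.10 and 12.9 CPM in fed and 1.19, 1.63 and 2.44 CPM in fasted wild-type mice, and 5.2, 8.57 and 13.5 against 0.777, 2.05 and 4.49 CPM in WT/Y657* mice. It too was lower in every fasted mouse than in any fed mouse of its genotype, at -2.0 in both (SE 0.34 and 0.32, adjusted p = 1.7e-05 and 8.7e-06).

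The promoters of Cyp2c70, Cyp2c38, Cyp2c39 and Cyp2c29 are shown because neighbours in 1 cluster moved in opposite directions. That of Cyp2c55 is not shown. The sequences are the 250 bases before the RefSeq start sites on GRCm38.p6, without any base that GENCODE places in an exon. Both strands were searched for 8 motifs, and matches are in capitals: TGTTTAC, the reverse complement of the forkhead motif GTAAACA, in Cyp2c38 and Cyp2c39, and the HNF4 motif CAAAGTCCA in Cyp2c70. The Cyp2c29 stretch held no match. The stretches are chr19:40187334-40187536, minus strand, for Cyp2c70, chr19:39463076-39463325, minus strand, for Cyp2c38, chr19:39510572-39510821, plus strand, for Cyp2c39 (the RefSeq site next to the GENCODE start of the gene) and chr19:39286835-39287073, plus strand, for Cyp2c29.
Cyp2c70: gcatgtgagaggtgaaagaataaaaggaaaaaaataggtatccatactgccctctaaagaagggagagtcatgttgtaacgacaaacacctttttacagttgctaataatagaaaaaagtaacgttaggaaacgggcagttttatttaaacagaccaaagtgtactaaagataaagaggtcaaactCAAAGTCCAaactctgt
Cyp2c38: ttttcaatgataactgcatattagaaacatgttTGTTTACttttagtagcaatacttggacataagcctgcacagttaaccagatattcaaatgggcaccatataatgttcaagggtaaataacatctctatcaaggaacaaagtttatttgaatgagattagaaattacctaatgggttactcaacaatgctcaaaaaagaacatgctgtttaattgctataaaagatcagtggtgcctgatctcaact
Cyp2c39: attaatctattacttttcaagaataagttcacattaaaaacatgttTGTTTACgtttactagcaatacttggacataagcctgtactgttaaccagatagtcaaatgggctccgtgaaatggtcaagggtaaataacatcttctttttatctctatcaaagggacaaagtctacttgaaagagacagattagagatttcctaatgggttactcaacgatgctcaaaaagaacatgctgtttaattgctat
Cyp2c29: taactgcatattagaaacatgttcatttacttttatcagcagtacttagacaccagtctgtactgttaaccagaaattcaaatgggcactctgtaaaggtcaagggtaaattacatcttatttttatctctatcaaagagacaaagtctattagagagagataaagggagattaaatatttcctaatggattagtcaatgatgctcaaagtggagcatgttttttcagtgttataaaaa

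Over the whole 250 bases, Cyp2c38 was 71.0% identical to Cyp2c39 and 68.8% to Cyp2c29, Cyp2c39 was 68.1% identical to Cyp2c29, and Cyp2c70 was 51.2% identical to Cyp2c29. Promoters were found for 45 of the 52 members. The forkhead motif was in 6 of the 45 (13.3%; Cyp2c38, Cyp2c39, Cyp2j5, Cyp3a11, Cyp3a16 and Cyp3a44) and in 3.2% of all 32851 promoters. The HNF4 motif was also in 6 (13.3%; Cyp2c65, Cyp2c67, Cyp2c68, Cyp2c70, Cyp3a11 and Cyp3a16) and in 0.4% of all. Cyp2j5 and Cyp3a11, which hold the forkhead letters, were not called with fasting in wild type (0.01 and 0.20, adjusted p = 0.942 and 0.594), and a link between motif and response was not tested. The C/EBP motif TTGCNNAA was in 9 of the 45 (9.6% of all promoters), the Ahr core GCGTG in 7 (15.6%, 28.2%), the STAT motif TTCNNNGAA in 2 (4.4%, 7.0%) and the E-box CACGTG in 1 (2.2%, 6.0%). The D-box TTATGTAA and the HNF1 motif GTTAATNAT were in 0 of the 45 and in 0.8% and 0.7% of all promoters.

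Cyp2e1 (ENSMUSG00000025479, chr7:140763739-140774987) rose with fasting in wild type from 3950, 4710 and 4910 CPM to 7660, 8750 and 9950 CPM, with every fasted mouse above every fed one (0.91, SE 0.23, adjusted p = 0.00302). In WT/Y657* mice the levels were 2280, 2870 and 3990 CPM fed and 1630, 5450 and 7900 CPM fasted (0.74, SE 0.23, adjusted p = 0.0140). Of the WT/Y657* fasted mice 4 were above all fed ones and 1 was below all of them. The WT/Y657* call was lost without mouse MT_826 (0.56, adjusted p = 0.0621). It was also lost by limma-voom, with only the groups compared and without the third fed block (from 0.50 to 0.74, adjusted p from 0.0547 to 0.208). Cyp1a2 (ENSMUSG00000032310) was lower in fasted mice, with 320, 382 and 422 CPM fed and 219, 230 and 252 CPM fasted in wild type (-0.70, SE 0.26, adjusted p = 0.0357), below all fed mice in 6 of 6. The WT/Y657* levels were 127, 197 and 355 CPM fed and 57.3, 145 and 200 CPM fasted (-0.69, SE 0.26, adjusted p = 0.0373), with 3 of 6 below all fed mice. The Cyp1a2 calls were close to the threshold, and both were lost with no filter (adjusted p = 0.0649 and 0.0617) and the WT/Y657* call with only the groups compared (adjusted p = 0.195). The wild-type call was kept in 3 of 12 runs without 1 mouse and lost (adjusted p from 0.0513 to 0.0640) without WT_848, WT_850, WT_856, WT_860, WT_824, WT_825, WT_918, WT_919 or WT_920. The WT/Y657* call was lost without MT_857, MT_858, MT_859, MT_806, MT_827 or MT_922 (adjusted p from 0.0663 to 0.137). Over settings other than leaving out a mouse, the WT/Y657* difference of Cyp1a2 ranged from -1.17 to -0.69.

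Cyp2u1, a hydroxylase of long-chain fatty acids (ENSMUSG00000027983), was reduced by fasting and rose again with refeeding in both genotypes. Wild-type mice had 47.8, 54.5 and 72.8 CPM fed, 23.1, 27.2 and 34.1 CPM fasted and 38.1, 48.6 and 63.1 CPM refed. WT/Y657* mice had 26.6, 59.7 and 67.1 CPM fed, 12, 17.3 and 23.7 CPM fasted and 34.7, 43.4 and 49.5 CPM refed. Fasted mice were below all fed and all refed mice of their genotype. The fasting difference was -1.04 (SE 0.17, adjusted p = 1.1e-05) in wild type and -1.65 (SE 0.17, adjusted p = 4.1e-09) in WT/Y657*, and refeeding gave 0.90 (SE 0.17, adjusted p = 1.1e-04) and 1.29 (SE 0.17, adjusted p = 5.9e-07). Cyp2u1 shared 12.3% of its windows with other genes, mostly with 4930534D22Rik.

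Cyp2r1, the hydroxylase that starts vitamin D activation in liver, had 17.2, 19.5 and 24.5 CPM in fed and 9.68, 11.5 and 13.6 CPM in fasted wild-type mice, with no overlap (-0.83, SE 0.16, adjusted p = 1.0e-04). It was -0.62 in WT/Y657* mice (SE 0.16, adjusted p = 0.00256), with 5 of 6 below all fed mice. Cyp2f2, which activates naphthalene, was at -0.52 and -0.63 (SE 0.14, adjusted p = 0.00331 and 4.8e-04), with 6 of 6 and 4 of 6 fasted mice below all fed ones. Cyp3a25 rose by 0.61 and 0.70 (SE 0.13, adjusted p = 4.4e-04 and 7.4e-05), from 351, 407 and 480 to 515, 636 and 723 CPM in wild type and from 359, 436 and 616 to 582, 810 and 836 CPM in WT/Y657*. Wild-type fed and fasted mice did not overlap, and 5 of 6 WT/Y657* fasted mice were above all fed ones. Cyp2j9, an arachidonic acid hydroxylase known mostly from brain, rose by 0.76 (SE 0.25, adjusted p = 0.0198) and 1.16 (SE 0.24, adjusted p = 3.2e-04), with 4 of 6 fasted mice above all fed ones in each genotype. The wild-type Cyp2j9 call was lost without WT_849, WT_856 or WT_824 (adjusted p from 0.0501 to 0.0521).

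Some members were called in 1 genotype only, and for none of them did edgeR's main test of the difference between responses pass. Cyp2d26 rose in wild type (0.45, SE 0.11, adjusted p = 0.00209, 6 of 6 mice above all fed ones), with 0.21 in WT/Y657* (adjusted p = 0.159) and a difference of -0.24 (adjusted p = 0.428). Cyp3a13 rose in WT/Y657* (0.80, SE 0.14, adjusted p = 1.9e-05, 6 of 6 above), with 0.21 in wild type (adjusted p = 0.247) and a difference of 0.59 (adjusted p = 0.0709). Cyp2c44, an epoxygenase, fell in WT/Y657* (-0.69, SE 0.13, adjusted p = 8.9e-05, 5 of 6 below), with -0.09 in wild type (adjusted p = 0.661) and a difference of -0.60 (adjusted p = 0.0536). Cyp2j5 was called lower in WT/Y657* (-0.28, SE 0.11, adjusted p = 0.0443), a call lost without MT_857, MT_858, MT_859, MT_869, MT_806 or MT_827 (adjusted p from 0.0561 to 0.149), and by edgeR's likelihood ratio test, with only the groups compared and without the third fed block (adjusted p from 0.0561 to 0.117). The 14 tested members outside the rule for named genes ranged from -1.88 to 0.52 in wild type and from -0.62 to 0.64 in WT/Y657*. Of them Cyp2d11 was called lower in wild type (-1.88) and Cyp2j6 and Cyp2c67 in WT/Y657* (-0.39 and -0.40), named here after their values were seen.

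**Figure D2:**
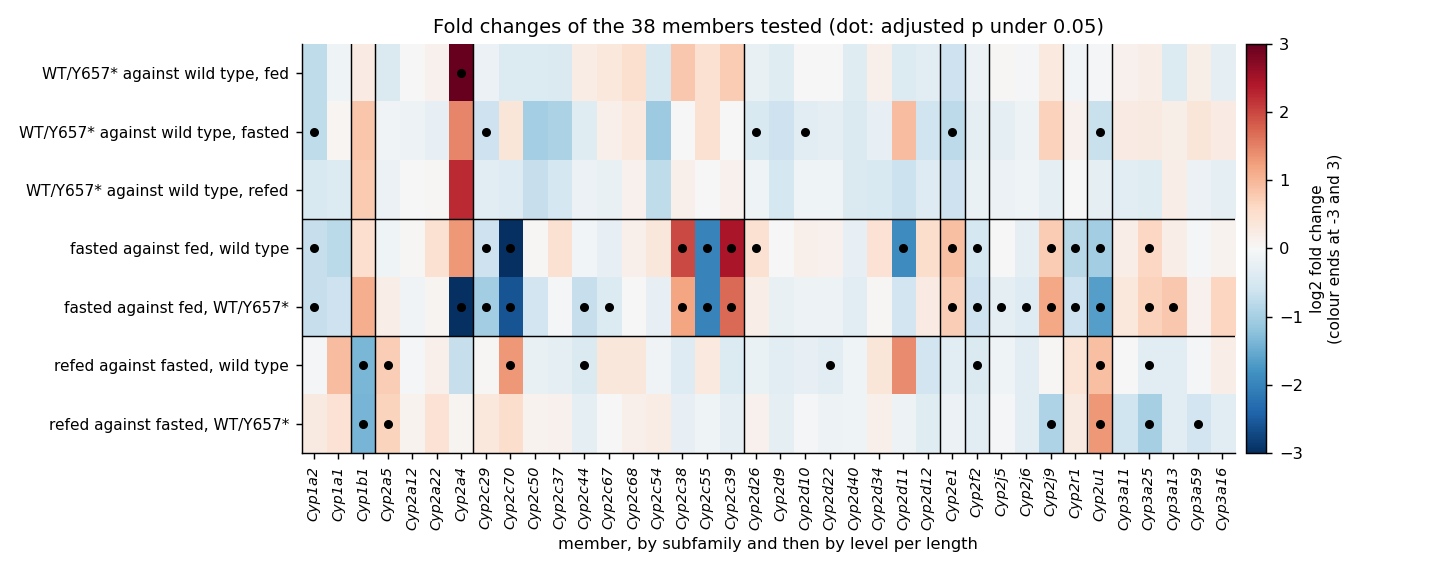
Log2 fold change (colour, ending at -3 and 3) of the 38 tested members (horizontal axis, by subfamily) in 3 genotype, 2 fasting and 2 refeeding comparisons (vertical axis), with a dot where the adjusted p is under 0.05. The fasting comparisons hold 14 and 18 dots, refeeding 8 and 6, and the genotype comparisons 1, 6 and 0.

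Refeeding asked what 6 h of chow after the fast changed. In wild-type liver 8 of 38 members were called, 3 higher and 5 lower (21.1%), where 30.2% of all genes were called, 16.5% higher and 13.7% lower. In WT/Y657* liver 6 were called, 2 higher and 4 lower (15.8%), where 31.3% of all genes were, 17.1% higher and 14.2% lower. The members' median was -0.11 and -0.08, that of all genes 0.002 and -0.008. Cyp2u1 and Cyp2a5 were called higher and Cyp3a25 and Cyp1b1 lower in both genotypes, or 50.0% of the wild-type list and 66.7% of the WT/Y657* list. Within the lower and higher number series, these 4 members kept their direction in each genotype. In the higher series this does not separate refeeding from number range, which fasted and refed mice did not share there. The wild-type count was 5 without WT_919 or WT_900, and the WT/Y657* count was 3 without MT_827 or MT_897. With only the groups compared in the fit, 14 of 36 members and 4784 of 13033 genes were called in wild type.

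Cyp2c70 recovered in part in wild type, to 135, 204 and 217 CPM in refed mice, 5 of 6 above all fasted mice (1.30, SE 0.24, adjusted p = 1.1e-04). It was 2.03 higher in the lower and 0.78 in the higher number series. WT/Y657* refed mice had 83.7, 158 and 185 CPM, of which 3 were above all fasted mice (0.53, SE 0.24, adjusted p = 0.0907). The difference between these responses was -0.77 (SE 0.34) and not called (adjusted p = 0.255). All refed mice remained below all fed mice of their genotype (-2.10 and -2.07, SE 0.25, adjusted p = 2.1e-07 and 2.0e-07).

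Cyp2a5, a coumarin and nicotine hydroxylase, had 93.0, 258 and 358 CPM in fasted and 322, 364 and 606 CPM in refed wild-type mice (0.74, SE 0.26, adjusted p = 0.0303), with 5 of 6 refed mice above all fasted ones. In WT/Y657* mice it had 146, 189 and 370 CPM fasted and 234, 291 and 549 CPM refed (0.67, SE 0.26, adjusted p = 0.0490), with 2 of 6 above. The wild-type call was lost without WT_807, WT_920 or WT_900 (adjusted p from 0.0666 to 0.104). The WT/Y657* call was lost without MT_806, MT_826, MT_827, MT_922, MT_923, MT_817, MT_897 or MT_899 (adjusted p from 0.0506 to 0.161). Cyp3a25 was lower in refed mice, at a median of 491 CPM in wild type (-0.35, SE 0.13, adjusted p = 0.0446) and a median of 385 CPM in WT/Y657* (-0.99, SE 0.13, adjusted p = 4.1e-07). All WT/Y657* refed mice and 4 of 6 wild-type refed mice were below all fasted mice, and the difference between genotypes was -0.64 (SE 0.19, adjusted p = 0.0624). The wild-type Cyp3a25 call was lost without WT_824, WT_825, WT_918, WT_919, WT_815, WT_816, WT_828, WT_896 or WT_900 (adjusted p from 0.0570 to 0.135).

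Cyp1b1, which acts on estrogens and polycyclic hydrocarbons mostly outside the liver, was scarce, at 0.692, 0.961 and 1.77 CPM in fasted and 0.135, 0.456 and 0.927 CPM in refed wild-type mice (-1.36, SE 0.53, adjusted p = 0.0483). In WT/Y657* mice it had 0.670, 2.27 and 3.23 CPM fasted and 0.0715, 0.681 and 1.67 CPM refed (-1.40, SE 0.47, adjusted p = 0.0212). The refed mice below all fasted mice were 5 of 6 in wild type and 3 of 6 in WT/Y657*. The wild-type call was lost without WT_807, WT_824, WT_919, WT_920, WT_815, WT_816, WT_896, WT_900 or WT_901 (adjusted p from 0.0552 to 0.111) and the WT/Y657* call without MT_827, MT_814, MT_817 or MT_897 (adjusted p from 0.0507 to 0.0598). Cyp2c44, Cyp2f2 and Cyp2d22 fell in wild type (-0.44, -0.43 and -0.32, adjusted p = 0.00862, 0.0156 and 0.0179), with 4, 5 and 1 of 6 refed mice below all fasted ones. The Cyp2f2 call was lost without WT_900 (adjusted p = 0.0558) and the Cyp2d22 call without WT_919 (adjusted p = 0.0564). In WT/Y657* mice Cyp2j9 and Cyp3a59 fell (-0.93 and -0.57, adjusted p = 0.00302 and 0.0315), with 3 and 6 of 6 mice below. Cyp3a59 was not called without MT_827, MT_922, MT_814, MT_897 or MT_898 (adjusted p from 0.0560 to 0.0736). It shared 26.8% of its windows with Cyp3a25, which stood at 255 RPKM over all libraries where Cyp3a59 stood at 12.8 RPKM, and which fell as well. Settings other than leaving out a mouse lost further refeeding calls. In wild type these were Cyp3a25 by the likelihood ratio test, with library size alone, no filter or only the groups compared (adjusted p from 0.0514 to 0.119), Cyp2a5 with no filter or only the groups compared (0.0590 to 0.0681), Cyp1b1 by limma-voom, with library size alone or no filter (0.0581 to 0.0772) and Cyp2d22 with library size alone (0.0589). In WT/Y657* they were Cyp2a5 with RLE in place of TMM scaling, no filter or only the groups compared (adjusted p from 0.0515 to 0.103), Cyp1b1 with only the groups compared (0.0589) and Cyp3a59 with library size alone or no filter (0.0719 to 0.0722). The 14 other tested members ranged from -0.58 to 1.41 and from -0.36 to 0.44, and edgeR called 0 of them.

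**Figure D3:**
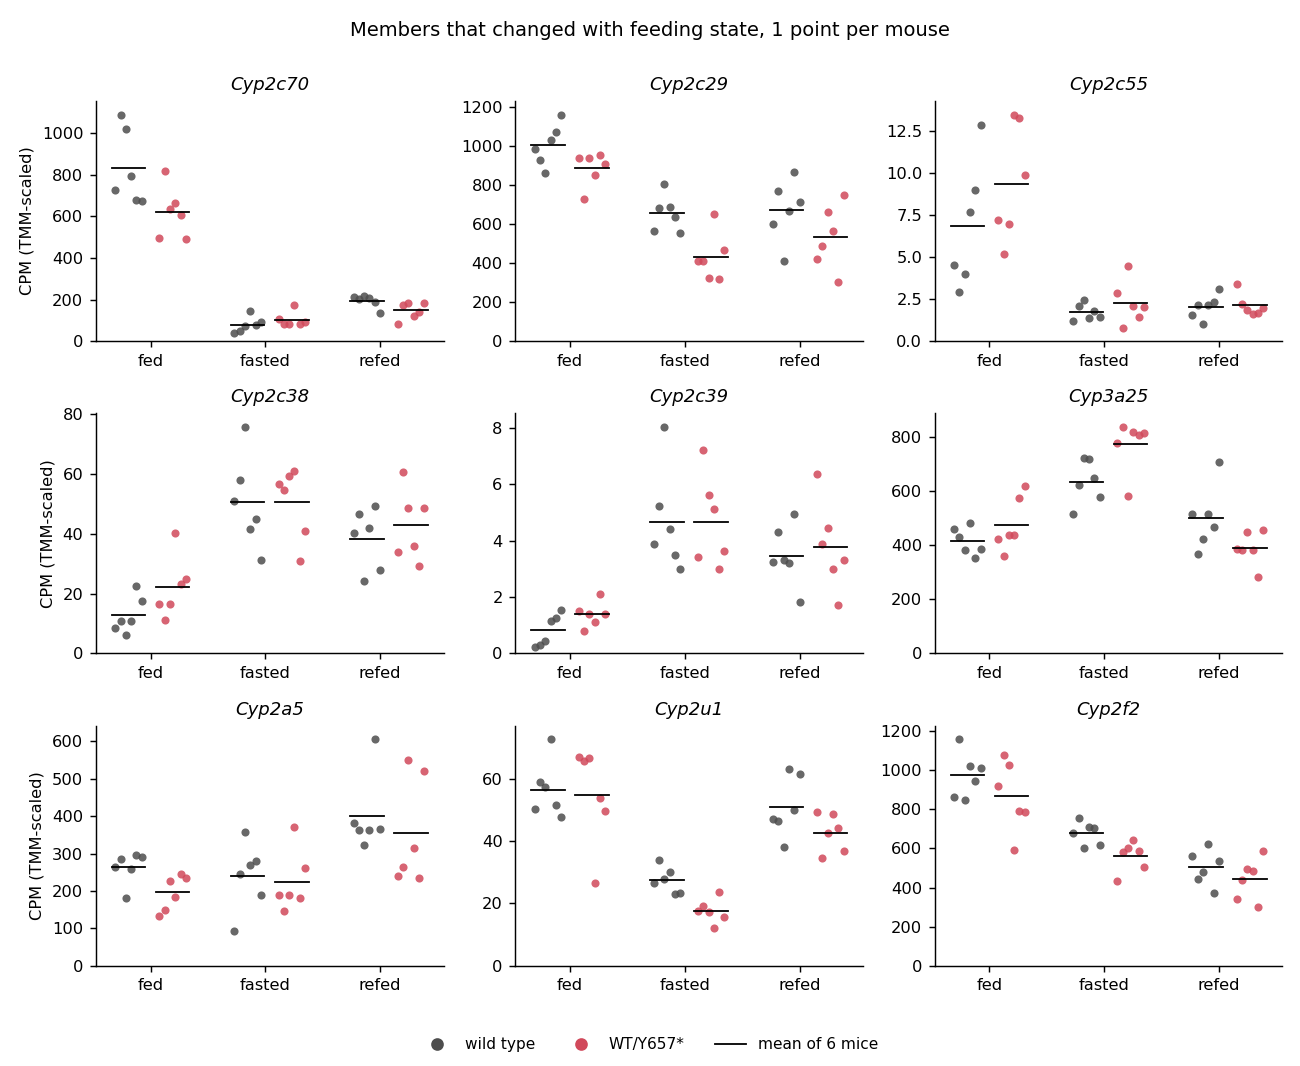
Levels of 9 members (vertical axes, CPM after TMM scaling, from 0) in fed, fasted and refed mice, 1 point per mouse, with colour for genotype and a line at the mean of 6 mice. Cyp2c70 falls from a median of 761 to 72.8 CPM with fasting in wild type while Cyp2c38 goes from 10.8 to 48.1 CPM, and Cyp2u1 returns to 48.6 CPM on refeeding.

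Refed and fed mice were also set side by side, to ask what 6 h of feeding had not restored. The comparison shares its mice with the others, its index rows differ as well, and the time of day may differ too. In wild type 14 members were called, 6 higher and 8 lower, where 27.5% of all genes were called, 13.2% higher and 14.3% lower. In WT/Y657* 15 were called, 5 higher and 10 lower, where 26.1% were, 13% higher and 13.1% lower. Besides Cyp2c70, Cyp2f2 was still lower (-0.95 and -0.97, SE 0.14, adjusted p = 3.1e-06 and 2.0e-06), with all refed mice below all fed mice of their genotype. Cyp2c55 stood at -1.71 and -2.13 (adjusted p = 1.5e-04 and 6.2e-06) and Cyp2c29 at -0.58 and -0.74 (adjusted p = 0.00993 and 0.00147). Cyp2c38 was still higher, by 1.60 and 0.95 (adjusted p = 1.3e-04 and 0.0123), and Cyp2c39 by 2.05 and 1.42 (adjusted p = 4.4e-05 and 0.00114). The WT/Y657* value of Cyp2c38 ranged from 0.94 to 1.53 over settings other than leaving out a mouse. After 6 h of refeeding these Cyp2c genes were still away from their fed levels.

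Genotype was compared within each feeding state, which asks what the truncation of *Pik3r1* does to the families in that state. Fasted liver held 6 members called by edgeR, 0 higher and 6 lower in WT/Y657* mice (15.8%), where 13.1% of all genes were called, 6.43% higher and 6.63% lower. The members' median was -0.15 and that of all genes 0.002, and 14 members had an unadjusted p under 0.05, as did 27.3% of all genes. Cyp2j9 was at 0.69 (adjusted p = 0.0538) and was called higher by DESeq2, limma-voom and the likelihood ratio test, and with library size alone, at least 10 counts or only the groups compared (adjusted p from 0.0298 to 0.0479). It was 0.24 in the lower and 1.05 in the higher number series. Cyp2c44 was at -0.37 (adjusted p = 0.0561) and was called lower by DESeq2 and limma-voom, and with the block as covariate or only the groups compared (adjusted p from 0.0306 to 0.047). Cyp2d22 was at -0.29 (adjusted p = 0.0580) and was called lower by DESeq2 and with the block as covariate (adjusted p = 0.0489 and 0.0324). With the block as covariate 9 members were called, 0 higher and 9 lower. Fed liver held 1 called member, higher (2.63%), where 2.37% of all genes were called, 1.21% higher and 1.15% lower, with medians of -0.04 and 0.008. Of all genes 330 were called there, and 0 with the block as covariate or without the third block, which leaves 3 WT/Y657* mice. Refed liver held 0 by edgeR, where 0.0287% of all genes were called. There 3 members and 9.53% of all genes had an unadjusted p under 0.05, DESeq2, limma-voom and edgeR's likelihood ratio test each called 0, and the members' median was -0.20 beside 0.006. The fasted count was 3 without mouse MT_806 and 10 without MT_826 or MT_921, and the fed count 0 without MT_866 and 2 without MT_858.

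Fasted WT/Y657* livers held less Cyp2e1, at the 1630, 5450 and 7900 CPM given above against 7660, 8750 and 9950 CPM (-0.79, SE 0.23, adjusted p = 0.0225). Of 6 WT/Y657* mice 5 were below all wild-type mice, and MT_827 (1630 CPM) and MT_806 (2820 CPM) were the lowest. The call was lost without MT_806 (-0.67, adjusted p = 0.0748) and with only the groups compared in the fit (-0.77, adjusted p = 0.135). Within the lower number series the difference was -1.34 and within the higher -0.59. In fed and refed mice it was -0.62 and -0.63 (adjusted p = 0.142 and 0.366), with 5 of 6 and 6 of 6 WT/Y657* mice below all wild-type mice. Among fed mice of the second number block, where both genotypes are present, it was -0.31. Among refed mice it was -0.46 in the lower and -0.91 in the higher series.

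Cyp1a2 followed the same mice. All 6 WT/Y657* fasted mice, from 57.3 to 200 CPM, were below the wild-type mice, from 219 to 252 CPM (-0.76, SE 0.26, adjusted p = 0.0476), with MT_827, MT_806 and MT_922 lowest at 57.3, 85.2 and 119 CPM. The call was kept in 3 of 12 runs without 1 mouse and lost without WT_807, WT_824, WT_825, WT_918, WT_919, WT_920, MT_806, MT_827 or MT_922 (from -0.90 to -0.60 over all runs, adjusted p from 0.0660 to 0.129 where lost). It was also lost with library size alone, no filter or only the groups compared (adjusted p from 0.0624 to 0.0989). Within the lower and the higher series it was -1.33 and -0.46. In fed mice Cyp1a2 was at -0.77 (adjusted p = 0.0976) and within the second block at -0.34, and in refed mice at -0.45 (adjusted p = 0.598). Among refed mice it was -0.21 in the lower series and -0.83 in the higher, where genotype and index row cannot be told apart.

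Cyp2c29 was lower in fasted WT/Y657* mice (-0.61, SE 0.17, adjusted p = 0.0151), with 5 of 6 mice below all wild-type mice and MT_921 (651 CPM) within their range. It was -0.84 in the lower and -0.44 in the higher series. Cyp2u1 was lower by a like amount (-0.66, SE 0.17, adjusted p = 0.0110), with 5 of 6 below, and -0.71 and -0.62 in the series. Cyp2d26 had 810, 954 and 1060 CPM in wild-type and 459, 735 and 860 CPM in WT/Y657* fasted mice (-0.46, SE 0.11, adjusted p = 0.00554), with 5 of 6 below, and -0.70 and -0.27 in the series. Cyp2d10 had 455, 520 and 534 CPM and 317, 435 and 459 CPM (-0.33, SE 0.11, adjusted p = 0.0387), with 5 of 6 below, and -0.42 and -0.25. The Cyp2d10 call was lost with library size alone and with only the groups compared (adjusted p = 0.0641 and 0.0503), and without WT_824, WT_918, WT_919, WT_920, MT_806 or MT_827 (adjusted p from 0.0606 to 0.126). Both Cyp2d genes belong to the family that hydroxylates many basic drugs, and Cyp2d10 shared 35.8% of its windows with other genes.

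The most negative log2 values between genotypes in fasted mice were not among the edgeR calls, and calls of these genes by other tools are not given here. Cyp2c50, Cyp2c54 and Cyp2c37, 3 neighbours in the Cyp2c cluster named here after their values were seen, were at -1.01, -1.09 and -0.95 (SE 0.35, 0.38 and 0.41) with adjusted p = 0.0527, 0.0579 and 0.126. Cyp2c50 ranged from 408 to 508 CPM in wild-type and from 47.2 to 411 CPM in WT/Y657* fasted mice, with MT_827, MT_806 and MT_922 at 47.2, 112 and 156 CPM. Their spread between WT/Y657* mice was wide, with a standard deviation of log2 CPM of 1.2 for Cyp2c50 against 0.12 in wild type. They also share 18.3% to 30.1% of their windows with other genes.

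In fed mice the only call was Cyp2a4, a testosterone hydroxylase (ENSMUSG00000074254), and it rested on 1 mouse. Wild-type fed mice had 0, 0.154 and 0.561 CPM and WT/Y657* fed mice 0.0710, 2.33 and 162 CPM. Mouse MT_866 had 162 CPM, MT_868 had 6.85 and MT_869 had 4.48, the 3 mice of the third number block, whereas MT_857, MT_858 and MT_859 had 0.0710, 0.179 and 0.184 CPM. The log2 difference was 6.85 (SE 1.5, adjusted p = 0.0148), with 3 of 6 mice above all wild-type mice. Without MT_866 it was 3.27 and not called (adjusted p = 0.186), and limma-voom and the fit with the block as covariate did not call it either (adjusted p = 0.357 and 0.999). Without the third block it was -0.70 (adjusted p = 0.974), an alternative chosen after the data were seen, and within the second block -0.15. The calls of Cyp2a4 in fasted and in refed against fed WT/Y657* mice (-4.08 and -4.00) were lost as well without MT_866 (-0.53 and -0.42, adjusted p = 0.719 and 0.791). 

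Cyp2a4 lies in a cluster with Cyp2a5 on chromosome 7, and the genes share exon sequence. In fed mice Cyp2a5 had 181, 275 and 297 CPM in wild type and 134, 205 and 246 CPM in WT/Y657*, and was not called (-0.43, adjusted p = 0.405). MT_866 had 184 CPM of it, and wild-type fed mice with as much or more had 0.561 CPM of Cyp2a4 or less. What part reads shared by the pair have in the Cyp2a4 levels was not tested. The promoters of the pair were 97.6% identical over 250 bases. Both hold the C/EBP motif as TTGCATAA, in capitals, in the stretches chr7:26306942-26307168 for Cyp2a4 and chr7:26835089-26835304 for Cyp2a5, both plus strand, on GRCm38.p6 before the RefSeq start sites and without bases in GENCODE exons.
Cyp2a4: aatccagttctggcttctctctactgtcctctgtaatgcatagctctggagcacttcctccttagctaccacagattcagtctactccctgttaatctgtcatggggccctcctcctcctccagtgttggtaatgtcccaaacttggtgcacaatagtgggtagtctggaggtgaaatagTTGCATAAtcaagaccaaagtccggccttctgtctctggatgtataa
Cyp2a5: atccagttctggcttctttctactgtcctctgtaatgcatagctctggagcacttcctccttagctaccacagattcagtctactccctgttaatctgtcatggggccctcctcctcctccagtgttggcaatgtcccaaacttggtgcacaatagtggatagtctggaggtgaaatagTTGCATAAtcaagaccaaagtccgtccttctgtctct

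**Figure D4:**
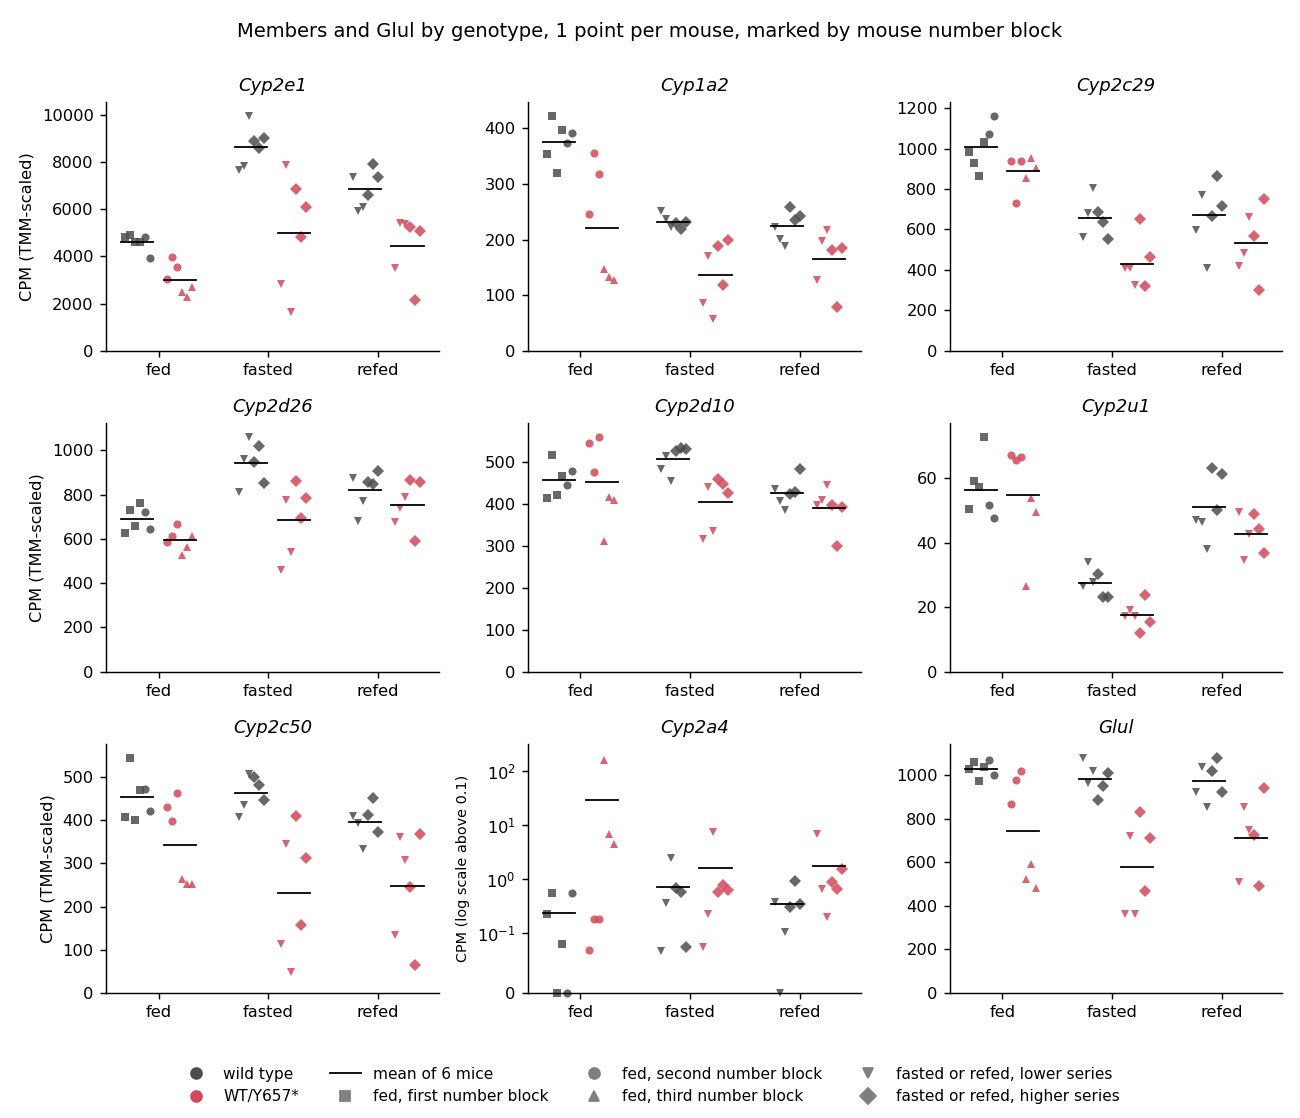
Levels of 8 members and of Glul (vertical axes, CPM after TMM scaling; log scale above 0.1 for Cyp2a4), 1 point per mouse, with colour for genotype, symbol shape for the block of mouse numbers and a line at the mean of 6 mice. In fasted WT/Y657* mice Cyp2e1 spreads from 1630 to 7900 CPM, against 7660 to 9950 CPM in wild type, and a single fed mouse reaches 162 CPM for Cyp2a4.

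Cyp3a11 and Cyp2d9, the remaining abundant members picked by the naming rule, were never called. Cyp3a11 had medians from 2720 to 3780 CPM in the 6 groups. Cyp2d9, a male-biased testosterone hydroxylase, had a median of 958 CPM in fasted wild-type and 642 CPM in fasted WT/Y657* mice. The 14 tested members outside the rule ranged from -0.48 to 0.47 between genotypes in fed mice, from -1.09 to 0.92 in fasted mice and from -0.76 to 0.13 in refed mice.

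The difference between the genotypes' responses was tested for fasting and for refeeding, to ask whether the truncation altered the response itself. By edgeR 0 of 38 members were called in either, where 4.35% and 2.06% of all genes were. For fasting this count depends on the genes left out. The left-out gene Cyp2b9 was called there, with a difference of -11.66 (SE 2.18, adjusted p = 0.00260). Its fasting response was 7.84 in wild type (adjusted p = 3.4e-04) and -3.81 in WT/Y657* (adjusted p = 0.0411). Among fed WT/Y657* mice nearly all of its counts came from MT_866. The other left-out genes tested were not called in either. At an unadjusted p under 0.05 there were 6 and 4 members, and 19.1% and 15.5% of all genes. DESeq2 called 3 and 1, edgeR's likelihood ratio test 2 and 0, and limma-voom 0 and 0. For fasting the count was 2 without WT_850, MT_866 or MT_921 and 1 without WT_860, MT_858, WT_807, WT_825 or WT_918. For refeeding it was 1 without MT_827, WT_816 or MT_899.

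The spread between mice leaned wider in WT/Y657* for members and for all genes. The standard deviation of log2 CPM was wider in WT/Y657* for 26, 29 and 30 of 38 members in fed, fasted and refed mice (68.4%, 76.3% and 78.9%), where it was for 57.5%, 65.5% and 59.9% of all genes. The members' median standard deviation was 0.26 in wild-type and 0.44 in WT/Y657* fasted mice, and that of all genes 0.20 and 0.24. For Cyp2e1 it was 0.14 in wild-type and 0.87 in WT/Y657* fasted mice, and for Cyp1a2 0.07 and 0.72. The low WT/Y657* mice for Cyp2e1 and Cyp1a2 were MT_866, MT_868 and MT_869 when fed, MT_806, MT_827 and MT_922 when fasted, and MT_810 and MT_898 when refed. Whether the spread differs between genotypes, or between members and all genes, was not tested.

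Glul, which codes for glutamine synthetase and is made only around the central vein, was low in the same mice. Wild-type fed mice had from 974 to 1070 CPM, and MT_866, MT_868 and MT_869 had 523, 590 and 480 CPM where the other fed WT/Y657* mice had 870 to 1020 CPM. In fasted WT/Y657* mice MT_806, MT_827 and MT_922 had 363, 363 and 467 CPM and the other 3 had 710 to 833 CPM, against 885 to 1080 CPM in wild type (-0.77, SE 0.19, adjusted p = 0.00509, 6 of 6 below). In refed mice MT_810 and MT_898 had 510 and 492 CPM, below all wild-type mice, and the other WT/Y657* mice had 724 to 944 CPM. Glul was not called in fed or refed mice (-0.47 and -0.45, adjusted p = 0.166 and 0.409). Of 10 pericentral genes 7 were called lower in fasted WT/Y657* mice (median -0.72, all genes 0.002), where 6.63% of all genes were, 1 in fed mice, where 1.15% were, and 0 in refed mice, where 0.0287% were called in either direction. Of 10 periportal genes 2 were called higher and 1 lower in fasted mice (median 0.16), beside 6.43% and 6.63% of all genes. The response of Oat to fasting differed between genotypes (-1.11, SE 0.24, adjusted p = 0.00655). What part fewer pericentral cells have in the lower P450 levels was not tested.

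Markers of other cells also differed between mice. The summed macrophage markers were at 163, 190 and 230 CPM in fed wild-type mice and at 456, 545 and 344 CPM in MT_866, MT_868 and MT_869, with MT_859 of the second block at 340 CPM. Refed mouse MT_898 had 512 CPM, against 165 to 363 CPM in refed wild-type mice, of which WT_828 was highest. In fasted mice WT_807 was highest at 354 CPM, against 196 to 333 CPM in WT/Y657*. Lymphocyte markers ranged from 10.1 to 17.8 CPM in fed wild-type mice and were at 44.4, 43.0, 22.1 and 20.8 CPM in MT_866, MT_868, MT_869 and MT_859 and, in refed mice, at 42.0 CPM in MT_898 against at most 34.2 CPM (WT_828) in wild type. Stellate cell markers were at 573, 523 and 486 CPM in fed MT_866, MT_857 and MT_858, against 279 to 443 CPM in fed wild-type mice, and at 525, 424, 411 and 407 CPM in fasted MT_827, MT_806, MT_826 and MT_921, against 328 to 397 CPM in fasted wild-type mice. In fasted mice lymphocyte markers were at 29.9 and 27.8 CPM in MT_827 and MT_806, against 15.1 to 24.7 CPM. Refed WT_828 had 429 CPM of stellate cell markers, above the other refed mice (291 to 396 CPM). The adipocyte sum was nearly all Cidec, with a mean of 2.89 CPM in fed wild-type mice, 22.7 CPM in fasted wild-type mice and 47.1 CPM in fasted WT/Y657* mice, so it was not read as a cell marker. Sinusoidal endothelial markers were at 208 to 284 CPM in fed and 292 to 339 CPM in fasted wild-type mice. In WT/Y657* mice they were at 242 to 300 and 278 to 342 CPM. Cholangiocyte markers had medians of 50.6, 36.7 and 24.1 CPM in fed, fasted and refed wild-type mice. In WT/Y657* mice these were 39.1, 29.8 and 32.2 CPM. What part other cells have in the differences between genotypes or feeding states was not tested.

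Genes that work with these enzymes were counted as lists, without a test, beside the 14.5% of all genes higher and 17.5% lower with fasting in wild type and the 15.2% and 17.7% in WT/Y657*. Of 30 receptors and factors, fasting raised 5 and lowered 3 in wild type (median 0.05) and raised 8 and lowered 9 in WT/Y657* (0.04). Nr1i3, which codes for CAR, rose by 1.86 (SE 0.29, adjusted p = 6.6e-06) and 1.96 (SE 0.29, adjusted p = 3.5e-06). In fasted mice 2 of the 30 were higher and 7 lower in WT/Y657* (median -0.22), where 6.43% and 6.63% of all genes were, among them Ppara (-0.55, SE 0.10, adjusted p = 3.3e-04) and the glucocorticoid receptor gene Nr3c1 (-0.38, SE 0.07, adjusted p = 7.7e-04). Of 6 electron partners tested, Por rose with fasting in both genotypes (0.71 and 1.08, adjusted p = 1.8e-04 and 2.9e-07) and Cyb5b fell (-1.10 and -1.35, adjusted p = 3.7e-08 and 5.2e-10). Of 11 genes of heme synthesis and breakdown, refeeding raised 6 in wild type and 5 in WT/Y657* and lowered 0, where it raised 16.5% and 17.1% and lowered 13.7% and 14.2% of all genes, with Alas1, which makes the first enzyme, at 0.89 and 0.99 (SE 0.25, adjusted p = 0.00761 and 0.00282).

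Of 11 other targets of CAR and PXR, fasting raised 4 and lowered 1 in wild type (median -0.06) and raised 2 and lowered 2 in WT/Y657* (median -0.21). Of 3 other Ahr targets tested it raised 1 and lowered 0 in wild type and raised 0 and lowered 0 in WT/Y657*. Of 9 male-biased genes fasting lowered 7 in wild type (median -1.18) and 5 in WT/Y657* (median -0.78). Of 8 female-biased genes tested, 3 were higher in fed WT/Y657* mice, where 1.21% of all genes were, 2 of them the left-out genes Cyp2c40 and Cyp2c69 (2.27 and 3.18, adjusted p = 0.0350 and 0.0421). MT_866 had 49.3 and 42.0 CPM of these, and the other WT/Y657* fed mice 9.39 and 5.62 CPM or less. For both genes 6 of 6 WT/Y657* fed mice were above all wild-type fed mice. As for all genes in fed mice, neither was called with the block as covariate or without the third block. Of the same 8 genes, Cux2 was called higher and Cyp2b9 lower (-6.19, SE 1.37, adjusted p = 0.00303) in fasted WT/Y657* mice. There 6.43% of all genes were higher and 6.63% lower. In refed mice 0 of the 8 were called, where 0.0287% of all genes were. Of 30 other P450 genes tested, fasting raised 9 and lowered 6 in wild type and raised 8 and lowered 8 in WT/Y657*. Cyp7b1, which acts on oxysterols, was among the lowered ones (-2.01 and -1.36, adjusted p = 2.2e-05 and 0.00180).

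Counts are of RNA, and P450 protein and activity were not measured. Each group held 6 male mice of 1 age, sampled at 1 time in each state. Index row largely followed feeding state and fed and fasted mice shared no number block, so a part of the differences between feeding states may go with them. The authors took livers before the overnight fast, at its end, or once mice had been refed, so time of day may differ between states. It cannot be told apart from feeding state. Among fed mice the genotypes met in 1 block only, with 2 and 3 mice. Bulk liver does not separate zones of the lobule. Reads of 50 bases cannot always be given to 1 of several paralogs, which touches Cyp2a and parts of Cyp2c, Cyp2d and Cyp3a most.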

How the data were processed

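Bulk liver RNA of 36 mice was measured, 6 in each of 6 groups. Per the labels, the authors made TruSeq stranded total RNA libraries, read them as single reads on a HiSeq 4000, named Cuffdiff and FeatureCount for alignment and counting, and compared groups with edgeR (TMM, likelihood ratio test). The deposited values are expected counts (estimated reads per gene and mouse, not normalized), and 3.64% of the non-zero values were not whole. The processing notes name mm9 and human genes, but the identifiers are mouse, and of 36425 genes found in GENCODE M21 the deposited position of 36338 (99.8%) overlapped the GRCm38 gene, so positions are given on GRCm38. A deposited table of fitted values per condition was not used, because it holds no variation between mice.

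Counts were rounded and filtered with filterByExpr over the 6 groups, which kept 13945 of 38283 genes, of which 25285 had a count. Total counts ranged from 8839481 to 19542778, and TMM factors from 0.914 to 1.090. edgeR put the common biological variation between mice (BCV) at 0.181. edgeR 4.0.16 in R 4.3.3 was used with 1 coefficient per group, robust quasi-likelihood fits and two-sided F tests for 11 comparisons, and p-values were adjusted by Benjamini and Hochberg over all genes tested at 0.05. The standard error is the log2 fold change divided by the square root of F. The steps were tested on simulated data, where 91 of 100 genes changed by a log2 of 1 and 56 of 100 changed by 0.5 were recovered.

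The members, the gene lists and the rule for naming genes were written before the data were examined here, but the members and lists were chosen with earlier results of these data known. Named were members called between genotypes, the 5 called members that rose most and the 5 that fell most in each fasting and refeeding response with a mean of at least 1 CPM, the 10 most abundant per length and the most abundant of each subfamily, 24 in all. Lists were described by counts and medians with no test. Spread was taken on log2 CPM with a prior count of 2. Alternatives were DESeq2 1.42.0, limma-voom (limma 3.58.1), edgeR's likelihood ratio test, edgeR with RLE in place of TMM scaling, library size alone, no filter, at least 10 counts in every library, the number block as covariate where the comparison can be estimated beside it, only the groups compared, the 5 left-out genes added, and leaving out each mouse. Leaving out the WT/Y657* fed mice of the third number block was added after seeing the data. Promoters of 250 bases were taken before RefSeq start sites, and exon sequence was compared in windows of 50 bases on both strands.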

Additional observations from a re-analysis of the deposited data

Results flagged for a closer look

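For the 24 named members in 6 groups, 144 groups of 6 mice were examined for a highest or lowest mouse whose gap to the next mouse is large beside the range of its group. There were 17 such mice and members. Chance flags about 1 in 20 groups if values are normal and groups independent, which members measured in the same mice are not. Cyp2a4 had 4 of them, each a high mouse: MT_866 in fed WT/Y657* (162 CPM, next 6.85), WT_825 in fasted wild type (2.44, next 0.692), MT_827 in fasted WT/Y657* (7.37, next 0.770) and MT_810 in refed WT/Y657* (6.81, next 1.54).

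In fed mice, Cyp2e1 was low in WT_860 (3953 CPM, next 4599), Cyp2a5 low in WT_849 (181, next 259), Cyp3a59 high in WT_848 (29.6, next 25) and Cyp2j9 high in MT_869 (11, next 7.20). In fasted mice, WT_807 was high for Cyp3a13 (285 CPM, next 206) and low for Cyp2d22 (123.2, next 169.8), MT_827 was low for Cyp3a25 (582, next 775) and MT_921 high for Cyp2c70 (172, next 105). In refed mice, WT_901 was low for Cyp2c70 (135 CPM, next 187) and high for Cyp3a59 (47.4, next 24.7), and WT_900 was high for Cyp2a5 (606, next 381). MT_898 was low for Cyp2d10 (301, next 393) and MT_810 high for Cyp2c55 (3.40, next 2.22).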

How the results depend on the processing

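Of 73 called results of named members, 620 values came from settings other than leaving out a mouse: 576 kept direction and call, 40 lost the call and 4 reversed. Of 876 values without 1 mouse, 769 kept the call, 107 lost it and 0 reversed. All 4 reversed values were of Cyp2a4: with the number block as covariate -1.03 for genotype in fed mice, and without the third fed block, an alternative chosen after seeing the data, -0.70 for genotype in fed mice, 3.44 for fasting and 3.55 for refed against fed in WT/Y657* (adjusted p from 0.0715 to 0.999 over the 4). The construction of both settings removes mouse MT_866 or its contrast with the other blocks. For fasted against fed and refed against fed mice, the block as covariate gives no value, because fed mice share no block with the others.

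The count of members called between genotypes in fed mice (1) was 3 with the 5 left-out genes, 2 by DESeq2, and 0 by limma-voom, with at least 10 counts, with the block as covariate, with only the groups compared and without the third block. In fasted mice (6, 0 of them higher) it was 11 by DESeq2 and 11 by limma-voom, 1 higher and 10 lower in each. For refeeding in wild type (8) it was 5 with no filter and 14 with only the groups compared. For the genotype difference of the fasting response (0) it was 1 with the left-out genes, 3 by DESeq2, 2 by the likelihood ratio test, 1 with library size alone, 1 with at least 10 counts, 1 with only the groups compared and 3 without the third block. For that of the refeeding response (0) it was 1 by DESeq2, with at least 10 counts and with the block. The cause was not tested. Library size alone moved the median of all genes between genotypes in fed mice from 0.008 to 0.108.

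Without 1 mouse the counts ranged from 0 to 2 between genotypes in fed mice, 3 to 10 in fasted and 0 to 0 in refed mice. They ranged from 11 to 15 for fasting in wild type and 14 to 19 in WT/Y657*, 5 to 10 and 3 to 9 for refeeding, 10 to 14 and 13 to 16 for refed against fed, and 0 to 2 and 0 to 1 for the differences of the responses. No paired analysis was possible because no mouse number occurs in more than 1 group.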
